A study of Mus musculus with 10 samples.

Results

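The Sox and T-box transcription factor genes were followed across 10 maps of H3K27me3, the histone mark of Polycomb repression, in mouse bone marrow-derived macrophages. The set holds every protein-coding gene on the 19 autosomes whose RefSeq symbol is Sox or Tbx followed by a number, with Tbr1, Eomes and Mga, which are T-box genes under other names. It comprised 33 of the 20665 autosomal protein-coding genes, 18 of them Sox genes and 15 T-box genes. Each gene was measured as cover, the percent of its body with 5 kb on either side that lay under called H3K27me3 regions. The rule uses symbols and no cover value, though the set was proposed with earlier results of these data known.

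The cells came from C57BL/6 marrow grown with 20 ng/ml M-CSF for 7 days. KO macrophages carried Eif2ak3 fl/fl, the floxed gene of the stress kinase PERK, together with LysMcre, a Cre recombinase made in myeloid cells. WT macrophages carried the same floxed alleles without Cre. M2 cells received 20 ng/ml IL-4 for 24 h, M1 cells received 20 ng/ml LPS with 50 ng/ml interferon-gamma for 24 h, and M0 cells received neither. There were 2 KO and 2 WT libraries in M2, 2 KO and 2 WT in M1, and 1 KO and 1 WT in M0, and the series' design text calls the M1 and M2 replicates biological. Each library pools many cells, so fewer marked cells and less mark per cell cannot be told apart.

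Libraries held 12.6 to 20.9 megatags, with 41.3% to 64.1% of tags inside regions. The 95% Wilson intervals of these shares reach at most 0.0267 percentage points to either side and cover counting error only. The 2 M0 libraries differed from the 8 stimulated ones: fragment lengths in the file headers were 178 to 190 bp in the stimulated libraries, 372 bp in KO M0 and 352 bp in WT M0, and autosomal cover was 179 to 250 Mb in the stimulated libraries, 176 Mb in KO M0 and 156 Mb in WT M0. The WT M2 replicate 1 library had the lowest share of tags in regions, 41.3%, and the lowest autosomal cover of the stimulated libraries, 179 Mb, so results that rest on it are also given without it. Called regions off the autosomes added up to 53.0 Mb in WT M2 replicate 1 and 31.4 Mb in WT M1 replicate 1, against 0.752 to 1.07 Mb in the 8 other libraries. These regions lie in no gene window measured here. They do count in the shares of tags, in the lengths and ranks of regions, and in the cut of regions by score used below. Their part in the results was not tested beyond leaving WT M2 replicate 1 and WT M1 replicate 1 out. Cover of Eif2ak3 was 0 to 2.08% of its window in every library, so the mark is no check of the deletion and the genotypes rest on the labels. The macrophage genes Csf1r, Adgre1, Spi1, Cd68, Itgam, Cd14 and Lyz2 had no cover in any library. The 9 measured housekeeping genes had none either.

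SOX proteins bind DNA through an HMG box and bend it, and T-box proteins bind it through the T-box domain that gives the family its name. Both families specify cell fates in the embryo, such as neural progenitors, cartilage, endothelium, limbs and heart, and a few members act in blood cells. In cells that do not use them, many such developmental genes lie in broad H3K27me3 domains placed by the Polycomb complex PRC2, often around CpG-rich starts.

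RefSeq promoters of build GRCm38.p6, 250 bases before to 50 bases after the listed start, were at hand for 24 of the 33 genes. Sox17, Sox18, Sox9, Sox10, Sox7, Tbx15, Tbx2, Tbx3 and Tbx5 were not used for sequences here. The 7 promoters printed here span what the mark did at these genes, with CpG dinucleotides in capitals. Eomes (chr9:118477939-118478238, plus strand) lay in a region in every library. Over its whole window, Tbr1 (promoter chr2:61804203-61804502, plus) was lower in every M2 than in every M1 library. By window cover, Tbx10 (promoter chr19:3992502-3992801, plus) had the largest difference between M2 and M1, and Sox30 (promoter chr11:45980060-45980359, plus) the widest spread over libraries. These are not differences at the promoters. The 5 kb around the listed start was at 100% at Tbx10 in all 10 libraries. It was at 89.3% to 100% at Tbr1, where M2 and M1 overlapped, and at 66.3% to 100% at Sox30. Sox4 (chr13:28953650-28953949, minus) is the Sox gene best known in blood. Sox15 (chr11:69654787-69655086, plus) and Tbx6 (chr7:126781233-126781532, plus) were never under a region.
Eomes: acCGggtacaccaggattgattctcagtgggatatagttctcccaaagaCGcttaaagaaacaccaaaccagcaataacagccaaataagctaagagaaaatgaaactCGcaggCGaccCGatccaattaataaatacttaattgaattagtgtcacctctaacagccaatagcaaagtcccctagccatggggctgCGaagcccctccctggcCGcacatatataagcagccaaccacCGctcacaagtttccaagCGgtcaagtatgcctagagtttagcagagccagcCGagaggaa
Sox4: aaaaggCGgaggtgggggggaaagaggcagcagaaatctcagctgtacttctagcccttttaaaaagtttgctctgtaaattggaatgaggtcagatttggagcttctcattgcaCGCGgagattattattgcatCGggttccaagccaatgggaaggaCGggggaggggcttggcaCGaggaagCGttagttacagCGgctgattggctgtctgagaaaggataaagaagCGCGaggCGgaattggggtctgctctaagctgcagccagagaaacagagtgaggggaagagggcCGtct
Tbr1: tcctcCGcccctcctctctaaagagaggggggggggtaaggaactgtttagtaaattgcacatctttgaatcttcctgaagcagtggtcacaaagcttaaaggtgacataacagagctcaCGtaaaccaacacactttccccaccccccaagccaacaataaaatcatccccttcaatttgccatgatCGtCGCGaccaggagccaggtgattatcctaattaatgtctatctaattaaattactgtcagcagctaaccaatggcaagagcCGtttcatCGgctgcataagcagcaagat
Tbx10: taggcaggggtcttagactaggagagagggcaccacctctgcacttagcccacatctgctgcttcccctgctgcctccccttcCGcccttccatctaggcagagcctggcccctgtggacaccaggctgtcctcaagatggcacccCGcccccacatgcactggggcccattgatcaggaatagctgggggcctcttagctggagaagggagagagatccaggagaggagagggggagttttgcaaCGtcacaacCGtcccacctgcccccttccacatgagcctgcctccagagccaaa
Sox30: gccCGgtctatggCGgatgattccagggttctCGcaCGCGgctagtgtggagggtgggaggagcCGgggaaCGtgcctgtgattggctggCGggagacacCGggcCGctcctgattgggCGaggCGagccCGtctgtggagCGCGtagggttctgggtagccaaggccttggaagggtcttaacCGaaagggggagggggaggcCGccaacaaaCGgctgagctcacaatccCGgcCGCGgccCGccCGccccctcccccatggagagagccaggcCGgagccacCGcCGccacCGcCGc
Sox15: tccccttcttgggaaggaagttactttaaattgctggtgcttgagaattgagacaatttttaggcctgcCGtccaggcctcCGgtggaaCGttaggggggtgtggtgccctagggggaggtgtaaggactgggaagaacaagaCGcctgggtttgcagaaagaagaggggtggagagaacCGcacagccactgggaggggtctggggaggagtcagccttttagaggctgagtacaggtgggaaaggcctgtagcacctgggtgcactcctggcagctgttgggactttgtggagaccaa
Tbx6: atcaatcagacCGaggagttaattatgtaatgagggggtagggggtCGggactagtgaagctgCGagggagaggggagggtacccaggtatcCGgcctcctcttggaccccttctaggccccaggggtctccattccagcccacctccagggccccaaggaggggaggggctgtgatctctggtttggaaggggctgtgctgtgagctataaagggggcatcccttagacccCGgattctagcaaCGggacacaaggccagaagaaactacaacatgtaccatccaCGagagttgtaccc

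These starts were not all CpG-rich. Eomes had 10 CpG, Sox4 12, Tbr1 7, Tbx10 4, Sox30 28, Sox15 5 and Tbx6 7. Over the 24 members the median was 18.5 CpG per promoter, with a range of 3 to 47, against a median of 14 over 16457 autosomal promoters. Of the 2.5 kb on either side of the outermost listed start, 18 members had at least 50% covered in all 10 libraries, and their promoters had a median of 21 CpG with a range of 4 to 47. The 6 others, Sox4, Tbx19, Mga, Sox5, Tbx6 and Sox15, had a median of 7 with a range of 3 to 24. The CpG ranges overlapped. The listed starts of Sox5 and Mga lie 835 kb and 24.7 kb inside the body, so their promoters here are not those of the upstream ends. The 5 kb around the upstream end was covered at 89.4% to 100% in Sox5 and 42.9% to 92.3% in Mga. The short SOX motifs ACAAAG and ACAATG, sought on both strands, occurred in 5 of the 24 promoters (20.8%) and in 25% of all promoters. The T-box motif AGGTGTGA occurred in 0 of the 24 and in 1.21% of all promoters.

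H3K27me3 covered most of these genes, in every state and in both genotypes. At least 50% of the window was covered in all 10 libraries for 18 of the 33 members (54.5%), where the share over all autosomal genes was 7.92%. The whole window was covered in all 10 libraries for 6 members (18.2%), against 1.07% of all genes. No library reached 50% for 10 members, against 81.5% of all genes, and no library had any cover for 2 members, against 44% of all genes. Each library had 19 to 21 members at 50% or more, which was 57.6% to 63.6% of the set and compares with 10.5% to 15.5% of all genes. Of the Sox genes 11 of 18 (61.1%) were covered in all 10 libraries, and of the T-box genes 7 of 15 (46.7%).

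**Figure D1:**
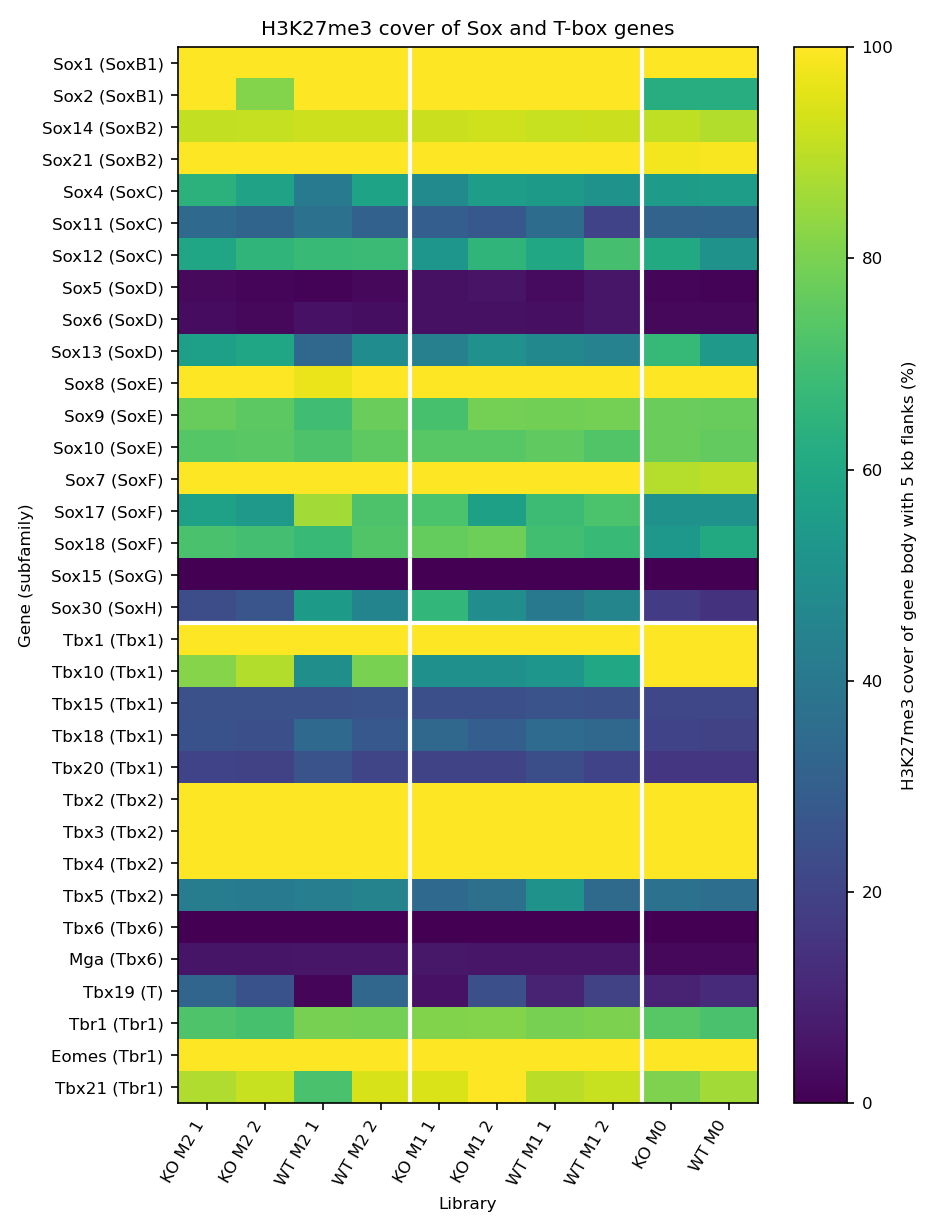
Percent of each gene's body with 5 kb flanks under called H3K27me3 regions, for 33 genes (rows, grouped by subfamily in brackets) in 10 libraries (columns; M2, M1 and M0 separated by white lines). Colour runs from 0 (dark) to 100% (yellow), and most rows keep 1 colour across the libraries; Tbx10, Sox30, Sox17, Sox13 and Sox2 vary most.

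The neural SoxB genes were near full cover. Sox1, a factor of neural progenitors, was at 100% in all 10 libraries, and Sox21, which acts in neurogenesis, was at 98.4% to 100%. Sox14, a gene of spinal interneurons, was at 88.3% to 92.9%. Sox2, which maintains pluripotent and neural stem cells, was at 100% and 81.6% in KO M2 and 100% and 100% in WT M2. It was at 100% in each of the 4 M1 libraries, and at 62.4% in KO M0 and 62.4% in WT M0. The 2 M0 libraries were thus lowest at Sox2, and KO M2 replicate 2 was the only stimulated library below 100%.

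The SoxE genes specify neural crest, glia and cartilage. Sox8 was at 97.1% to 100%, Sox9, the master factor of cartilage, at 69.4% to 79.2%, and Sox10, of glia and melanocytes, at 71.99% to 77.3%. The SoxF genes act in endothelium and endoderm, and Sox7 was at 88.8% to 100% and Sox18 at 53.2% to 78.0%. Sox17, which also acts in fetal blood stem cells, is described with the genotypes. All 6 SoxE and SoxF genes were covered at 50% or more in every library.

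The SoxC genes act in neurons and, in the case of Sox4, in early B cells. Sox4 was at 64.1% and 57.5% in KO M2, 41.2% and 58.1% in WT M2, 47.5% and 55.8% in KO M1, 54.4% and 51.3% in WT M1, 55.2% in KO M0 and 56.0% in WT M0. The groups overlapped, and the lowest value was that of WT M2 replicate 1. Sox12 was at 51.5% to 70.5%. Sox11 was at 34.3% and 32.3% in KO M2, 37.4% and 31.0% in WT M2, 29.7% and 27.5% in KO M1, 35.3% and 20.0% in WT M1, 31.8% in KO M0 and 32.2% in WT M0.

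Among T-box genes the Tbx2 group, which patterns limbs and heart, held some of the fullest cover. Tbx2, Tbx3 and the hindlimb gene Tbx4 were at 100% in all 10 libraries, while the forelimb and heart gene Tbx5 was at 34.3% to 51.0%. Tbx1, a gene of the pharyngeal arches, was also at 100% throughout. Its relatives Tbx20 (15.9% to 25.8%), which acts in the heart, Tbx18 (19.7% to 34.8%), which acts in the epicardium and ureter, and Tbx15 (21.3% to 25.4%), which acts in the limb skeleton, had partial cover. Tbx19, the pituitary factor that drives Pomc, varied between replicates, with 32.5% and 25.3% in KO M2, 1.72% and 32.9% in WT M2, 5.01% and 24.2% in KO M1, 10.0% and 19.6% in WT M1, 9.73% in KO M0 and 12.3% in WT M0. Replicates of 1 group differed at Tbx19 by as much as the groups did.

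The Tbr1 group includes the T-box genes of lymphocytes. Eomes, which acts in mesoderm, cortex and cytotoxic lymphocytes, was at 100% in all 10 libraries. Tbx21 encodes T-bet, the factor of type 1 helper T cells and natural killer cells. It was at 88.2% and 91.6% in KO M2, 71.3% and 94.0% in WT M2, 94.1% and 100% in KO M1, 89.7% and 91.5% in WT M1, 80.6% in KO M0 and 86.2% in WT M0. Both genes were thus covered over most or all of their windows in every library, and 5 kb around the Tbx21 start was at 100% in all 10.

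In the long genes Sox5, Sox6 and Mga, the stretch called in all 10 libraries lay at the upstream end. Sox5 and Sox6, which cooperate with Sox9 in cartilage, have bodies of 954 kb and 570 kb, and Mga, a MAX partner found in a Polycomb complex, has one of 97.6 kb. Sox6, which also silences embryonic globin genes in red cell precursors, was at 3.19% and 2.33% in KO M2, 5.00% and 3.83% in WT M2, 4.68% and 4.51% in KO M1, 4.25% and 5.87% in WT M1, 2.07% in KO M0 and 2.04% in WT M0. Mga was at 5.74% and 5.63% in KO M2, 5.97% and 5.87% in WT M2, 6.61% and 6.09% in KO M1, 6.00% and 5.92% in WT M1, 2.24% in KO M0 and 1.99% in WT M0. In both genes the 2 M0 libraries were below all 8 stimulated ones.

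Despite this low share, the 5 kb centred on the outermost listed start of Sox6 was at 100% in all 10 libraries, as it was at the starts of Tbx18 and Tbx20. Of the 6 listed starts of Sox6 the first 2 were covered, at 78.7% to 100%, and the 4 that lie 45.7 to 239 kb inside the body were at 0 in all libraries. At Sox5 a stretch of 4 kb at the upstream end (chr6:144780425-144784424) was called in all 10 libraries, and 89.4% to 100% of the 5 kb around that end was covered. The start listed for the Sox5 promoter lies 835 kb inside the body and was at 0. At Mga a stretch of 2 kb at the upstream end (chr2:119871503-119873502) was called in all 10 libraries, and the listed start 24.7 kb inside was at 0. Common stretches were not always at an end. At Tbx5, whose strand was not used here, 15 kb (chr5:119794514-119809513) and 17 kb farther along the body (chr5:119828514-119845513) were called in all 10 libraries.

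Counted over the 24 members with a listed strand, 18 (75%) had at least 50% of the 5 kb around the upstream end covered in all 10 libraries, where the share over all 16457 genes with a listed strand was 15.5%. For the downstream end the count was 11 (45.8%), where the share over all genes was 6.53%. These end windows were chosen after the cover of the bodies had been seen. Across the 33 members, mean cover was lower in longer genes (Spearman rho of -0.33 across genes), while it was nearly flat over all 20665 genes (rho of 0.07). Genes share libraries and are not independent replicates, so these coefficients describe and do not test.

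**Figure D2:**
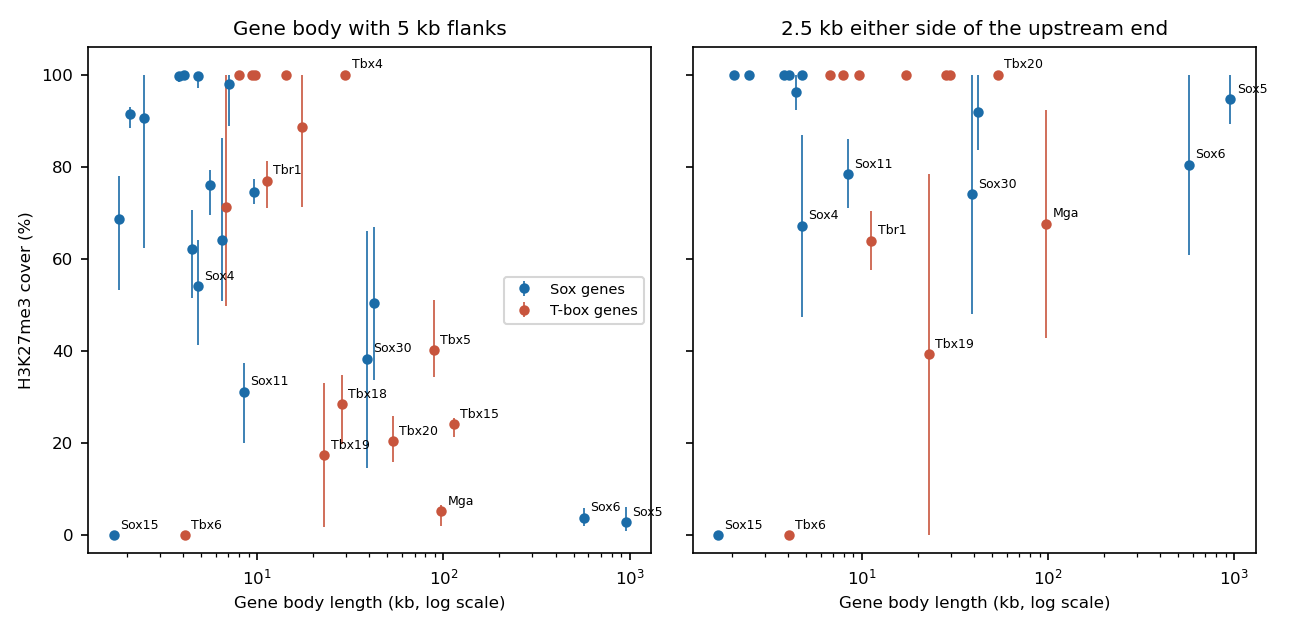
Left, mean cover of the body with 5 kb flanks over 10 libraries against body length on a log scale, with bars from the lowest to the highest library. Right, for 24 genes with a listed strand, the lowest to highest cover of the 5 kb centred on the upstream end, with points at the middle of that range. Sox5, Sox6 and Mga lie under 10% on the left and reach 92.3% or more at the upstream end on the right; Sox15 and Tbx6 are at 0 in both.

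Sox15, which acts in muscle precursors and placenta, and Tbx6, which specifies paraxial mesoderm, had no called region in their windows in any library. Both bodies are short, 1.69 kb and 4.07 kb, in a size range where Sox14 (2.07 kb) and Sox1 (4.04 kb) were fully or nearly covered.

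The regions over these genes were long and dense within their lists. The longest region touching each member had a median over members of 14.4 to 30.1 kb across libraries, while the median of all regions was 1.79 to 2.83 kb. For 22 of the 31 members with a region, that region's length had a median rank above the 90th percentile of its library. For 29 of 31 its tag density, from the authors' normalised tags, did so. Sox30 and Tbx19 were the exceptions, at median percentiles of 75.8 and 37.4. No share over all genes is given beside these counts. Taking the longest region at a gene favours long regions, so they describe the members and do not set them apart from other genes. Sox8 lay inside a region of 292 to 302 kb in every library, which touched 9 or 10 genes. Tbx2 and Tbx4 lay in 1 shared region in 9 of 10 libraries, with a median length of 128 kb in those 9, whereas Tbx3 and Tbx5, also neighbours, shared a region in 0 of 10.

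Whether alternative (M2) and classical (M1) stimulation differ at these genes was asked over 4 M2 and 4 M1 libraries, with an exact two-sided permutation test per gene. A gene was called when the groups did not overlap, which gives the smallest possible p of 0.0286. Tbr1 and Sox5 were called, both lower in M2. These were 2 of the 31 members with any cover (6.45%), where 3.28% of 11044 genes were called in either direction, 1.1% higher and 2.17% lower in M2. After Benjamini-Hochberg adjustment over all genes tested neither passed, with an adjusted p of 0.829 in this exact permutation test, and 0 of 11044 genes passed, while 362 had an unadjusted p under 0.05. Without WT M2 replicate 1, 4 members (Tbr1, Sox6, Tbx18 and Tbx10) and 9.79% of all genes had that p. The difference was within 5 percentage points for 25 of the 31 members. The median absolute difference was 1.24 points over the members and 1.89 over all genes tested. At 8 of the 31 members the window was wholly covered in all 8 stimulated libraries, so cover could show no difference there.

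Tbr1, a gene of cortical neurons, had 72.5% and 71.1% in KO M2, 79.5% and 79.2% in WT M2, 81.2% and 81.3% in KO M1, 79.6% and 80.2% in WT M1, 73.8% in KO M0 and 71.4% in WT M0. The KO M2 and the M0 libraries were low, and the WT M2 libraries lay next to the M1 libraries. The means were 75.6 ± 4.40% in M2 and 80.6 ± 0.775% in M1 (n = 4 each, ± SD), a difference of -4.99 points. The highest M2 and the lowest M1 library were separated by 0.160 points, or 34 bases of the window. Without any 1 of the 4 M1 libraries the exact permutation p was 0.114 to 0.143. The Tbr1 body was fully covered in every stimulated library and the difference of the bodies alone was 0, so the difference lay in the flanks. The region ended 12.7 to 13.4 kb after the listed start in KO M2 and 12.9 to 13.4 kb after it in M0, and ran past the window's end at 14.7 kb in WT M2 and M1. WT M2 and M1 thus differed only at the upstream edge. It lay at -2.23 and -2.18 kb from the listed start in WT M2 and at -2.61 to -2.27 kb in M1.

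Sox5 had 2.58% and 1.67% in KO M2, 0.820% and 2.32% in WT M2, 4.53% and 5.36% in KO M1, 2.96% and 6.00% in WT M1, 1.18% in KO M0 and 0.931% in WT M0. In length this was 7.90 to 24.8 kb in M2, 28.5 to 57.8 kb in M1, 11.4 kb in KO M0 and 8.98 kb in WT M0. The M1 libraries were high and did not overlap the M2 libraries. The means were 1.85 ± 0.783% in M2 and 4.71 ± 1.32% in M1 (n = 4 each, ± SD), a difference of -2.87 points. Without any 1 of the 4 M2 libraries the exact permutation p was 0.0571. The window was touched by 2 to 13 regions in M2, 12 to 18 in M1 and 4 or 5 in M0.

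Tbx10, a relative of Tbx1, had the largest difference between the states without a call. It was at 81.9% and 88.5% in KO M2, 49.7% and 79.8% in WT M2, 50.2% and 50.1% in KO M1, 52.7% and 59.6% in WT M1, and 100% in both M0 libraries. The means were 74.99 ± 17.2% in M2 and 53.1 ± 4.47% in M1 (n = 4 each, ± SD), a difference of 21.8 points with an exact permutation p of 0.143. WT M2 replicate 1 was the 1 M2 library as low as the M1 libraries. Without it the difference was 30.3 points with the smallest p of this exact test, 0.0286, unadjusted. The start of Tbx10 was at 100% in all 10 libraries. The region over it reached 3.31 to 6.46 kb past the start in the stimulated libraries and past the window's end in M0. A separate region, beginning 8.17 to 8.54 kb past the start, was called in both KO M2 libraries, WT M2 replicate 2 and WT M1 replicate 2. It also enters the difference between M2 and M1.

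Sox30, a factor of spermatid development, had 23.8% and 26.5% in KO M2, 54.4% and 45.1% in WT M2, 66.1% and 49.2% in KO M1, 40.3% and 45.7% in WT M1, 17.5% in KO M0 and 14.5% in WT M0. KO M2 was low beside the other stimulated groups, and its replicates did not overlap with those of any of them. The difference between M2 and M1 was -12.9 points (exact permutation p of 0.229). Tbx19 differed by 8.37 points, Tbx21 by -7.55 points and Sox11 by 5.63 points, with exact permutation p values of 0.343, 0.229 and 0.143. Their M2 and M1 libraries overlapped. Without WT M2 replicate 1 the Tbx21 difference was -2.57 points.

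**Figure D3:**
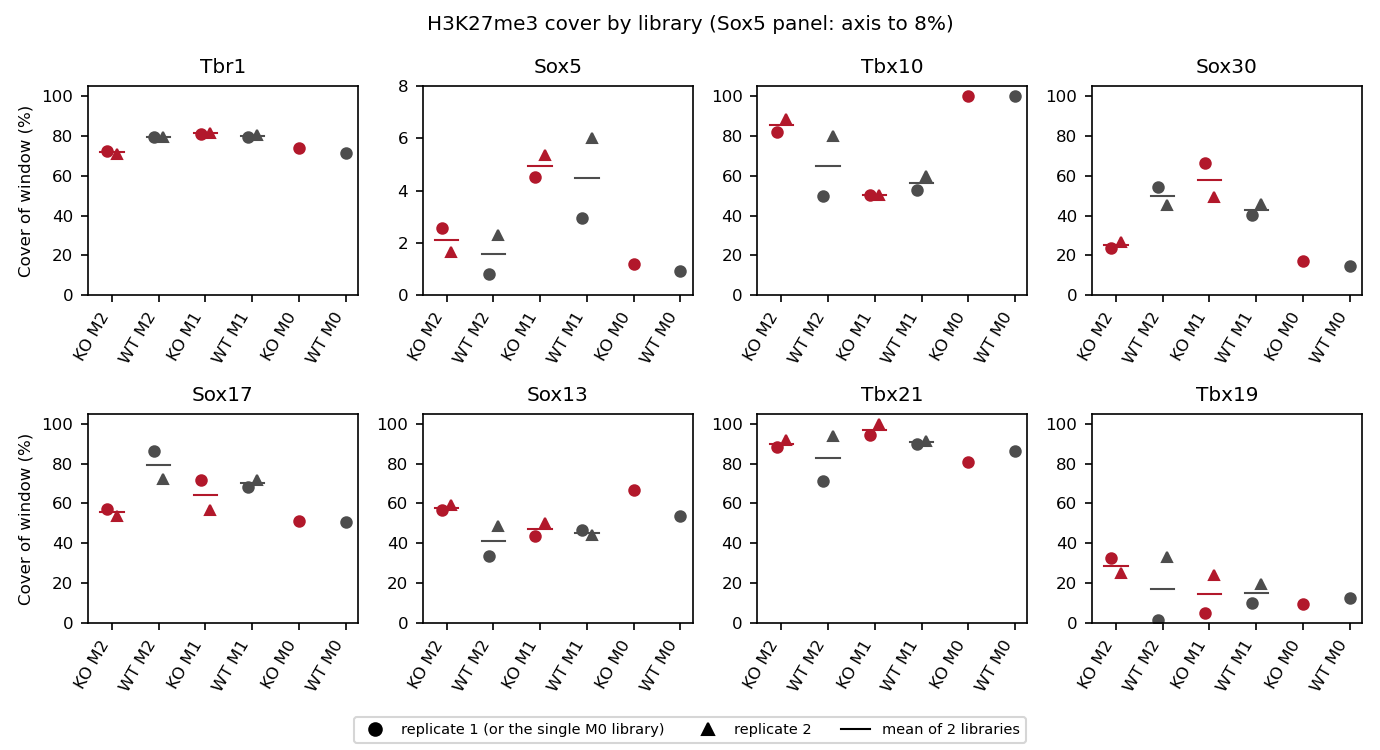
Cover of 8 genes in each library, by group (KO red, WT grey; circles replicate 1 or the single M0 library, triangles replicate 2, lines the mean of 2 libraries). The vertical axis is percent of the window and runs to 8% for Sox5 and to just over 100% elsewhere. Tbr1 is low in KO M2 and M0, Sox5 is high in M1, Tbx10 is at 100% in M0, and Sox30 is low in KO M2 and M0.

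**Figure D4:**
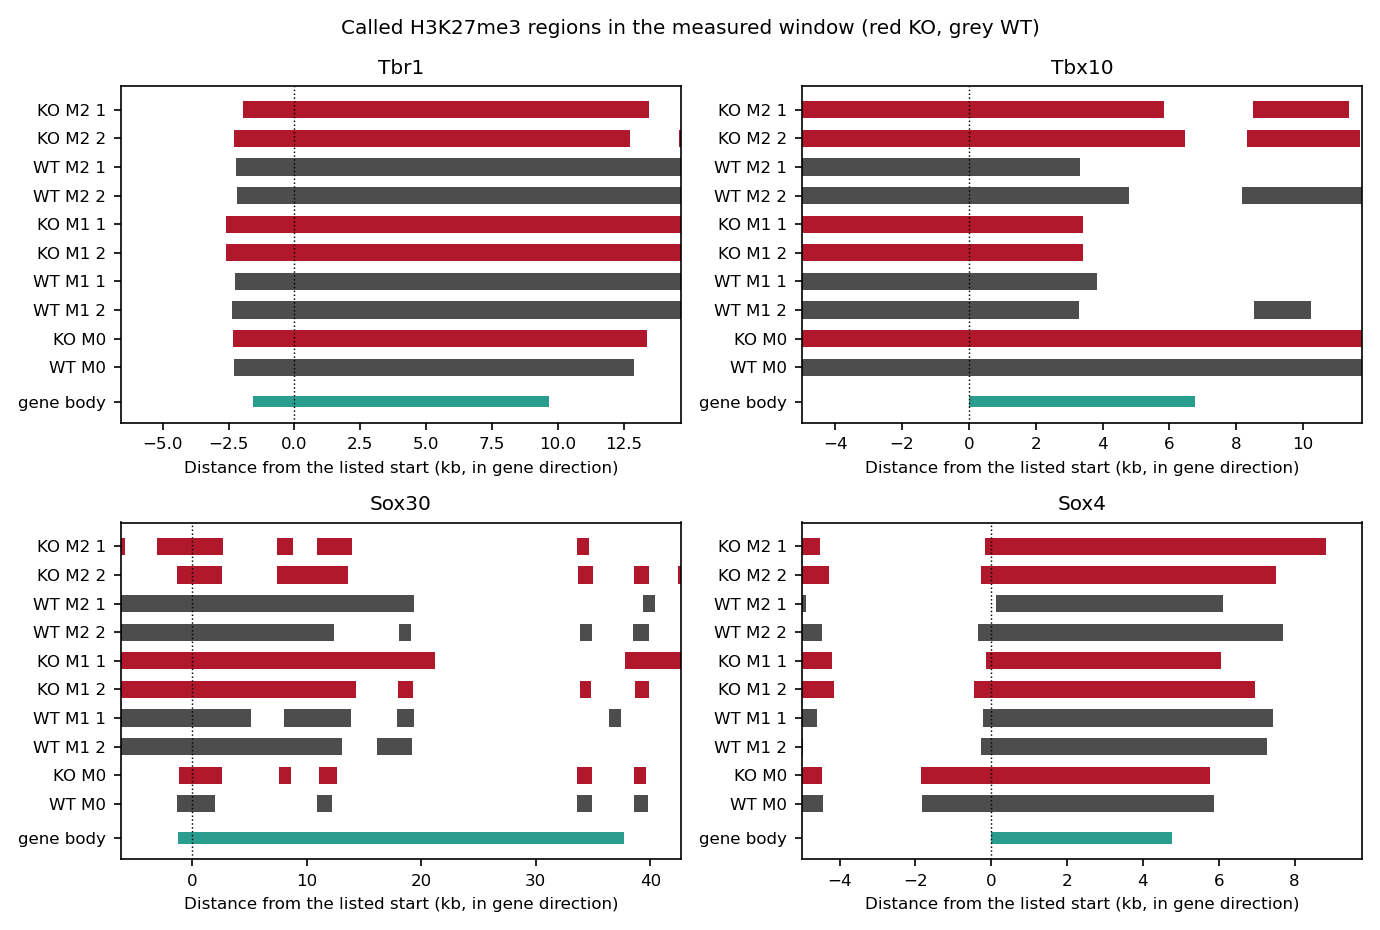
Called regions clipped to the measured window of Tbr1, Tbx10, Sox30 and Sox4, 1 bar row per library (KO red, WT grey), against distance from the listed start in kb; the green bar is the gene body. At Tbr1 and Tbx10 the libraries differ where the region ends downstream, and at Tbr1 also at its upstream edge. At Tbx10 some stimulated libraries also hold a separate region farther downstream, and at Sox30 KO M2 and M0 hold short separate regions.

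The number of members covered at 50% or more overlapped between the states and between the genotypes. It was 20.25 ± 0.957 in M2 and 20.5 ± 0.577 in M1 (n = 4 each, ± SD), and 20.8 ± 0.447 in KO and 20.2 ± 0.837 in WT libraries (n = 5 each, ± SD). Over all genes the covered share was 14.2 ± 1.08% in KO and 12.9 ± 1.85% in WT (n = 5 each, ± SD).

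The question of PERK loss was asked over 5 KO and 5 WT libraries, by exact two-sided permutation of the genotype within each state, with a smallest p of 0.0278. None of the 31 members with cover was called, in either direction. Over all 11579 genes tested 4.39% were called, 3.78% higher and 0.605% lower in KO, and the smallest adjusted p was 0.633 (exact permutation, Benjamini-Hochberg). At an unadjusted p under 0.05 there were 508 genes, and the count of members was likewise 0. The difference was within 5 points for 28 of 31 members, and its median size was 0.669 points over the members and 1.68 over all genes tested. At 6 of the 31 the window was wholly covered in all 10 libraries, so cover could show no difference there. The 2 medians are therefore not a like comparison.

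Sox17 had the largest difference. It was at 57.1% and 53.8% in KO M2, 86.3% and 72.3% in WT M2, 71.9% and 56.7% in KO M1, 68.5% and 71.8% in WT M1, 51.4% in KO M0 and 50.8% in WT M0. The means were 58.2 ± 7.99% in KO and 69.9 ± 12.7% in WT (n = 5 each, ± SD), a difference of -11.7 points within states (exact permutation p of 0.167). KO and WT did not overlap in M2 and overlapped in M1. The Sox17 body was fully covered in the stimulated libraries, where body cover gave a difference of 0.

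Sox13, which acts in gamma-delta T cells, was at 56.5% and 59.2% in KO M2, 33.7% and 48.5% in WT M2, 43.7% and 50.4% in KO M1, 46.7% and 44.2% in WT M1, 66.9% in KO M0 and 53.8% in WT M0. The means were 55.3 ± 8.80% in KO and 45.4 ± 7.41% in WT (n = 5 each, ± SD), a difference of 9.97 points (exact permutation p of 0.0833). KO was higher in M2 and in M0, and the genotypes overlapped in M1. Without WT M2 replicate 1 the Sox13 difference was 7.02 points, and without KO M1 replicate 1 it was 11.3 points, with the smallest p of this exact permutation test, 0.0278, unadjusted. Tbx10, Tbx21 and Tbx19 differed by 5.77, 4.35 and 4.02 points, with exact permutation p values of 0.778, 0.444 and 0.722. Without WT M2 replicate 1 those of Tbx10, Tbx21 and Tbx19 were -0.253, -0.182 and -2.23 points, so their sign depended on that library. Without both WT replicate 1 libraries, a comparison added after the data were seen, the difference was -9.61 points at Sox17 and 7.52 points at Sox13, and the smallest p this exact permutation test can then give is 0.0556.

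**Figure D5:**
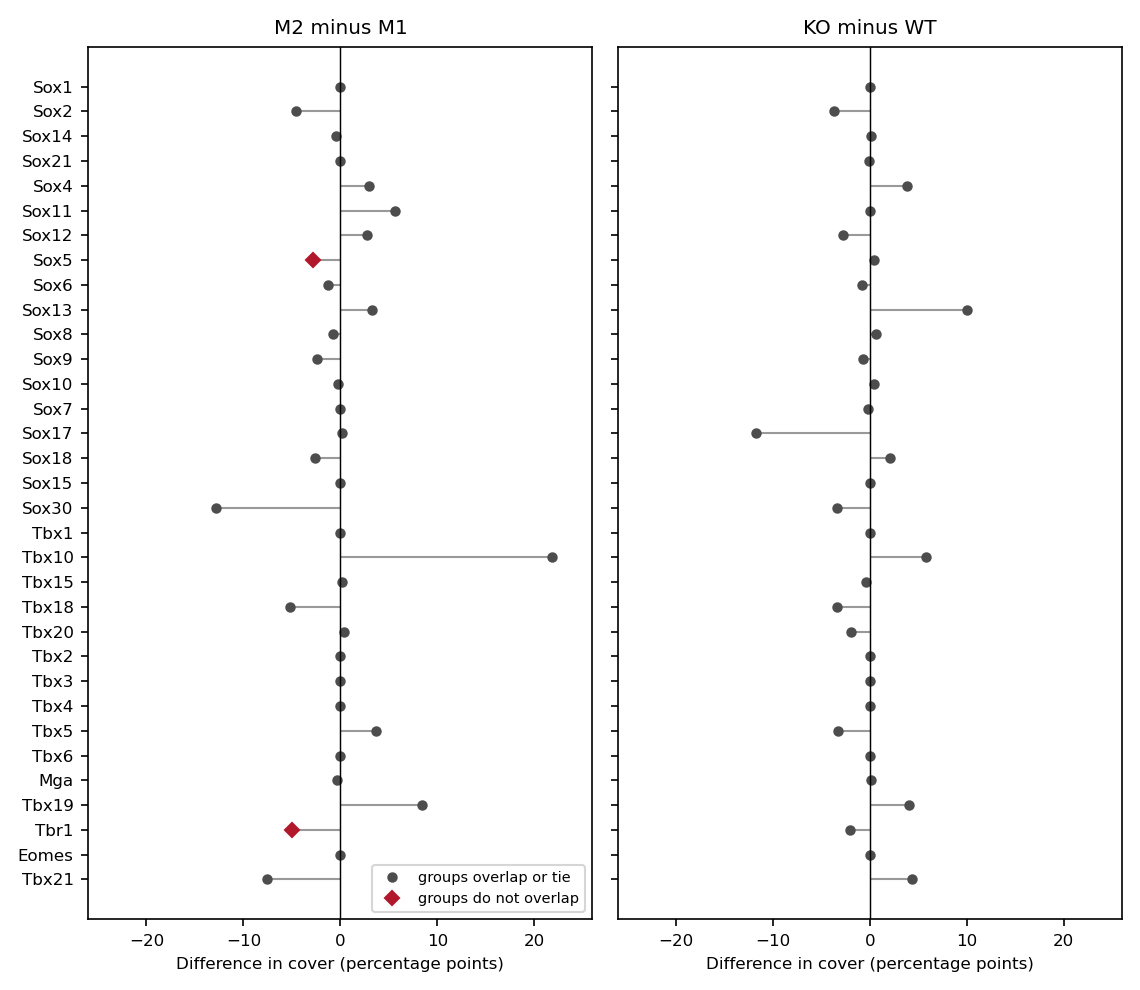
Difference in cover in percentage points for each of 33 genes, M2 minus M1 (left, 4 libraries each) and KO minus WT (right, 5 libraries each, within states). Red diamonds mark genes at the smallest exact permutation p, Tbr1 and Sox5 on the left and none on the right; most points lie within 5 points of 0.

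Within 1 state, 2 KO libraries against 2 WT libraries cannot give an exact permutation p under 0.33, so values are given without a test. In M2 both KO libraries lay below both WT libraries at 11 of 31 members (35.5%), where this held for 10.7% of 10531 genes. They lay above both at 2 (6.45%), Sox13 and Tbx10, where it held for 28.6%. The 11 lower members were Sox14, Sox12, Sox6, Sox17, Sox30, Tbx15, Tbx18, Tbx20, Tbx5, Mga and Tbr1. Their differences ran from -24.6 points at Sox30 and -23.8 points at Sox17 to -0.235 points at Mga. The bodies alone of Sox14, Sox17 and Tbr1 were at 100% in all 10 libraries, so there the difference lay in the flanks. The Sox12 body was at 99.8% and 100% in KO M2 and 100% in WT M2, so the genotypes did not separate over it. Without WT M2 replicate 1, a comparison added after the data were seen, both KO libraries lay below the remaining WT library at 16 members (51.6%), where 33.4% of 10418 genes did, and above it at 3 (9.68%), where 30.6% did. The background thus depended strongly on that library. In M1 the KO libraries lay below both WT libraries at 3 members, Tbx10, Tbx15 and Tbx18, where 8.2% of 10350 genes did. They lay above both at 5, Sox18, Sox30, Mga, Tbr1 and Tbx21, where 16.2% did. The Sox18 body, like that of Tbr1, was at 100% in all 10 libraries. Tbx15 and Tbx18 were thus lower in KO in both M2 and M1, with differences of -0.432 and -6.10 points in M2 and -0.769 and -2.52 points in M1. In M0 they went the other way, by 0.153 points at Tbx15 and 0.325 points at Tbx18. No share over all genes is given for being lower in both M2 and M1. Sox30, Mga, Tbr1 and Tbx10 had opposite directions in M2 and M1.

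M0 had 1 library per genotype, and depth, fragment length and state cannot be told apart there, so these values have no test. All 8 stimulated libraries lay above both M0 libraries at 12 of 31 members (38.7%), where this held for 17.7% of 11579 genes. These were Sox2, Sox14, Sox21, Sox6, Sox7, Sox17, Sox18, Sox30, Tbx15, Tbx18, Tbx20 and Mga. The gap was widest at Sox2, with 81.6% to 100% in stimulated cells against 62.4% in M0, and at Sox7, with 100% against 88.8% and 89.9%. The bodies alone of Sox2, Sox7, Sox14, Sox21, Sox17 and Sox18 were at 100% in all 10 libraries, so these gaps lay in the flanks. The Mga body overlapped, at 1.09% to 2.17% in the stimulated libraries and 1.32% to 1.56% in M0. All 8 stimulated libraries lay below both M0 libraries at 2 members (6.45%), where 9.74% of all genes did. These were Sox10, at 71.99% to 75.6% against 76.0% to 77.3% in M0, and Tbx10, at 49.7% to 88.5% against 100% in M0.

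The authors' deposited tables list 1376 regions for KO against WT, 1234 in M2 and 142 in M1. In the authors' deposited tables the p-value reached 0.00996 in M2 and 0.00999 in M1, and the false discovery rate was 0.00294 to 0.205 in M2 and 1.00 in M1. In the authors' deposited tables none of them touched the window of a member, while 805 touched the window of some gene. The 805 are regions and not genes. The share of all genes touched is not given here, so the absence at members has no background beside it. The nearest one, in the authors' deposited table for M2, lay 36.2 kb from Tbx21, with a log2 fold of 1.86 in favour of KO and a false discovery rate of 0.147.

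Genes that work with or under these factors were read in the same way. Of 16 partner genes, 8 were covered in all 10 libraries, Nkx2-5 most fully at 100%, and 3 had no cover, Ctnnb1, Max and Mitf. The partner Isl1, a factor of motor neurons and heart progenitors, was lower in M2, at 78.9 ± 7.27% against 92.8 ± 5.10% in M1 (n = 4 each, ± SD; exact permutation p of 0.0286, adjusted p of 0.829). Isl1 was 1 of 13 tested partners, where 2.17% of 11044 genes were called lower in M2. Of 9 measured T-bet and Eomes targets, 1 was covered in all 10 libraries, Il2rb at 84.0% to 96.7%, and Il12rb2 was at 0. None of these targets was called in either comparison.

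Of 8 cartilage targets of the SoxD and SoxE factors, 2 were covered in all 10 libraries, Col2a1 and Matn1, and Col9a1 was at 0. Matn3 was higher in M2, at 40.5 ± 4.22% against 24.2 ± 7.82% in M1 (n = 4 each, ± SD; exact permutation p of 0.0286, adjusted p of 0.829). Matn3 was 1 of 7 tested, where 1.1% of 11044 genes were called higher in M2. Comp was at 75.1 ± 3.17% in KO and 63.6 ± 13.3% in WT, and Matn1 at 82.0 ± 6.04% in KO and 74.9 ± 7.47% in WT (n = 5 each, ± SD). Each had the smallest p of the exact permutation test within states, 0.0278, with an adjusted p of 0.633. Comp and Matn1 were 2 of 7 tested cartilage genes, where 3.78% of 11579 genes were called higher in KO. Of 7 measured glial and melanocyte targets of Sox10, 0 were covered in all 10 libraries, Erbb3 was highest at 32.6% to 65.1%, and Tyr was at 0.

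Markers of other cells were read for context. Of 10 T and natural killer cell genes, 1 was covered in all 10 libraries, Cd3e at 75.7% to 99.2%, and Klrb1c was lowest at 0 to 15.7%. Of 8 stromal genes, Col1a1 was at 92.8% to 100%, Dcn was at 0 to 3.83%, and Kdr was called higher in KO, at 11.8 ± 4.66% against 7.08 ± 2.21% in WT (n = 5 each, ± SD; exact permutation p of 0.0278, adjusted p of 0.633). Kdr was 1 of 8 tested, where 3.78% of 11579 genes were called higher in KO. Of 12 macrophage genes none reached 50% in all 10 libraries. H3K27me3 cover is no measure of expression or of how many cells of a type were present.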

How the data were processed

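H3K27me3 ChIP-seq was analysed from 10 region lists and 4 tables of differential regions. The submitters' processing notes name build mm10 and the tools HOMER 4.8, DiffBind 2.0.2, Bowtie2 2.4.2, deepTools 3.5.1 and SAMtools 1.10. Per the file headers, HOMER called regions in each library without an input, from 1000 bp windows joined over gaps to 2500 bp (false discovery rate 0.001). The deposited signal is the authors' tag count normalised to 10 megatags. The lists also hold a score and a clonal fold ratio per region, per the file headers. The authors' differential tables give log2 concentrations and folds, a p-value and an FDR; their model is not given in the sources used here.

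With Python 3.11.15, numpy 2.4.6, pandas 2.3.3, scipy 1.17.1 and matplotlib 3.10.9, each library's overlapping regions were merged and measured over RefSeq gene windows of GRCm38.p6, the same build as mm10. Genes with no cover in the compared libraries were left out of the tests. M2 was compared with M1 by exact permutation over 70 arrangements, and KO with WT within states over 72, with Benjamini-Hochberg adjustment over all genes tested; the steps were tested on simulated data. The region lists hold no count table, so no count model was used. Values in every library are given for called members, the 5 with the largest difference in each comparison, the 5 with the widest range, and Tbx21, Eomes, Sox4, Mga and Sox6. Alternatives were other flanks, the gene body or start, the upper 50% of regions by score, other limits of cover, each replicate left out, both WT replicate 1 libraries left out (added after the data were seen) and a replicate block. Some list genes are not reported here. The members, lists and tests were chosen with earlier results of these data known.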

Additional observations from a re-analysis of the deposited data

Results flagged for a closer look

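Within a state's 4 libraries, 6 of 44 sets of values with any spread had a highest or lowest library far from the other 3, where chance gives about 1 in 20 for values without a ceiling. That was 13.6% of the members' sets, against 19.5% of 19962 such sets over all autosomal genes. Sox2 in KO M2 replicate 2 was at 81.6%, with 100% in the other M2 libraries. Cover cannot exceed 100%, so any lower value meets this limit there. Sox8 in WT M2 replicate 1 was at 97.1%, also with 100% in the others, so the same holds for it. Sox9 in KO M1 replicate 1 was at 70.7%, 8.03 points below the next M1 library. Tbx20 was high in WT M2 replicate 1, at 25.8%, and in WT M1 replicate 1, at 24.2%. Tbx5 in WT M1 replicate 1 was at 51.0%, 14.0 points above the next M1 library.

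For 5 contrasts every library of one group lay on one side and every library of the other on the opposite side, and none of these differences was tested. KO minus WT took opposite directions in M2 and M1 at 4 of 31 members (12.9%), against 3.01% of 11044 genes. M2 minus M1 did so in KO and WT at 1 of 31 (3.23%), against 2.14%. KO minus WT at Sox30 was -24.6 points in M2 and 14.7 points in M1, and at Tbx10 it was 20.4 points in M2 and -6.00 points in M1. At Tbr1 it was -7.55 points in M2 and 1.28 points in M1, and at Mga -0.235 points in M2 and 0.393 points in M1. M2 minus M1 at Sox14 was -1.36 points in KO and 0.530 points in WT.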

How the results depend on the processing

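The count of members called between M2 and M1, 2 as reported, was 1 with the gene body alone (Sox5), 1 with the upper 50% of regions by score (Tbr1) and 0 with the 5 kb around the gene start, where 20 members could be tested. With single libraries left out it ran from 1 to 4, the 4 being Tbr1, Sox6, Tbx18 and Tbx10 without WT M2 replicate 1, and either Tbr1 or Sox5 was lost each time. With 3 libraries against 4, groups that do not overlap need not give the smallest p, and the p of the lost genes was 0.0571 to 0.143 (exact permutation). Over all genes the count was 362 as reported, 1079 without WT M2 replicate 1, 239 to 523 without the other single libraries, 215 with the body alone and 134 at gene starts. Between KO and WT the count of members, 0 as reported, was 2 with 10 kb flanks (Tbx15 and Tbx18) and 0 to 1 with single libraries left out, the 1 being Sox13 without KO M1 replicate 1. Over all genes it was 508 as reported, and 589 (4.40% of those tested) with 10 kb flanks. It was 216 to 750 with single libraries left out, 305 with the body alone, 226 with the upper 50% and 97 at gene starts. Without both WT replicate 1 libraries, a comparison added after the data were seen, the count was 0 in both comparisons, where the smallest possible p is 0.1 between M2 and M1 and 0.0556 between KO and WT; the M2 minus M1 difference was then -6.60 points at Tbr1 and -3.11 points at Sox5. M1 and M2 libraries alone cannot give a p under 0.0556. Replicate numbers gave no uniform pairing of the libraries, though some groups shared deviations. The correlation of same-numbered deviations was 0.373 between WT M2 and KO M1 and 0.165 between WT M2 and WT M1. It was -0.111 between KO M2 and WT M2, -0.0408 between KO M1 and WT M1, 0.0274 between KO M2 and KO M1 and -0.0797 between KO M2 and WT M1. With the replicate block the count was 0 in both comparisons, since 4 pairs cannot give an exact p under 0.125. The mean number of covered members differed between M2 and M1 by -0.25 as reported, 0.75 with a limit of 25%, 0.75 with the body alone and -2.25 with the upper 50% of regions. Between KO and WT it differed by 0.6 as reported, -0.6 with a limit of 25%, -0.4 with a limit of 75% and 4.2 with the upper 50%. The score setting drops whole regions, and the Tbx21 difference of M2 minus M1 was 63.7 points there. The cause of these shifts was not tested. With 2 to 4 libraries a group and regions called anew in each, cover shows where a region was called, not how strong the mark was.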
